A study of Mus musculus with 4 samples.

Results

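H3K4me3 regions lying far from protein-coding genes were examined in mouse peritoneal macrophages exposed to lipopolysaccharide (LPS, a bacterial cell-wall component) or to saline buffer (PBS) as control. The H3K4me3 peaks of the LPS and the PBS library were merged where they overlapped or touched, on chromosomes 1 to 19 and X. A merged region was kept when it lay outside the body of every protein-coding gene of the mm10 RefSeq annotation (GRCm38.p6, 21627 genes) and more than 10 kb from the nearest end of one, whatever its width or tag count. The rule kept 7251 of 36628 merged regions (19.8%). They held 257187 tags in the LPS library, 6.85% of all tags in H3K4me3 peaks there, and 336279 tags in the PBS library, 6.36%.

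The cells came from C57BL/6 mice aged 8 weeks. Thioglycollate broth, an irritant that draws monocyte-derived macrophages into the peritoneum, was used to elicit them, and after they had adhered to dishes they were kept for 24 h with LPS or with PBS. Chromatin was immunoprecipitated with an antibody to H3K4me3 (ab8580) or to H3K9me3 (ab8898), giving 4 groups of 1 library each: H3K4me3 with LPS, H3K4me3 with PBS, H3K9me3 with LPS and H3K9me3 with PBS. The labels name no genetic change in any group and do not give the number of animals behind a library. With 1 library per group no difference between LPS and PBS has a replicate check, no test between the treatments was possible, and every interval given here covers counting error only.

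The H3K4me3 libraries held 26748289 (LPS) and 29681491 (PBS) tags after duplicate removal, and the H3K9me3 libraries 28586946 and 27727997. The PBS library had the larger share of its filtered tags in H3K4me3 peaks, 17.8% against 14.03%. The peak caller was run without a control library. All 10 macrophage marker genes checked (among them Spi1, Csf1r and Adgre1) had an H3K4me3 peak in both lists. A peak was also present in both lists at 1 of 5 T cell, 2 of 5 B cell and 1 of 4 liver markers, at 1 of 5 neutrophil markers in each list, and at 1 (LPS) and 3 (PBS) of 5 markers of mesothelium and fibroblasts. A mark on few cells and a weak mark on many cells cannot be told apart in such bulk libraries.

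H3K4me3 is laid down by the SET1/COMPASS and MLL complexes around transcription start sites, most densely where CpG-rich DNA recruits their CFP1 and related subunits, and it is best known as a mark of active or poised promoters. Far from protein-coding genes it occurs at promoters of long non-coding RNAs (lncRNAs) and microRNA host transcripts, at genes read by RNA polymerase III such as tRNA genes, and at lower levels on strong enhancers, which are otherwise marked by H3K4me1. H3K9me3, deposited by SETDB1 and SUV39H enzymes, marks heterochromatin, including satellite repeats and silenced transposons. In macrophages LPS acts through Toll-like receptor 4 and activates enhancers and promoters of inflammatory genes through NF-kB, AP-1 and interferon regulatory factors, on a landscape opened by PU.1.

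The RefSeq promoter windows below (250 bases before to 50 bases after the start, GRCm38.p6, written 5′ to 3′ on the transcript's own strand) belong to lncRNAs that start inside a far region, and CG dinucleotides are in capitals. They were chosen to show the range from a CpG-rich start to a CpG-poor one: Snhg5 (chr9:88522848-88523147, minus strand, 36 CG dinucleotides) and Dleu2 (chr14:61682324-61682623, minus strand, 29) at the dense end, then Morrbid (chr2:128429302-128429601, minus strand, 8), Mir99ahg (chr16:77329078-77329377, plus strand, 8) and Gm34150 (chr15:36374102-36374401, plus strand, 4).
Snhg5: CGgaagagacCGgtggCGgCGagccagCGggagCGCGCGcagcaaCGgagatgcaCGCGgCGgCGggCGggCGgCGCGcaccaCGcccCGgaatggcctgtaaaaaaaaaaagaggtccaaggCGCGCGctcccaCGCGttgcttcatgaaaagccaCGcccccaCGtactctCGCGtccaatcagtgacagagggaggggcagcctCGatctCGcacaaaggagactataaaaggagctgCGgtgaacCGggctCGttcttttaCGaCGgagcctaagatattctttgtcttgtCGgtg
Dleu2: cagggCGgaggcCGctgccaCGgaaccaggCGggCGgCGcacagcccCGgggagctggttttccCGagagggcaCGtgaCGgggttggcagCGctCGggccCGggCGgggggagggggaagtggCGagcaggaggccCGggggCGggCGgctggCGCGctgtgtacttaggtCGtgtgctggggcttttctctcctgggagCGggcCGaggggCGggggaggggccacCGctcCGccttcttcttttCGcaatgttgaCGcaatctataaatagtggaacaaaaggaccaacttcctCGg
Morrbid: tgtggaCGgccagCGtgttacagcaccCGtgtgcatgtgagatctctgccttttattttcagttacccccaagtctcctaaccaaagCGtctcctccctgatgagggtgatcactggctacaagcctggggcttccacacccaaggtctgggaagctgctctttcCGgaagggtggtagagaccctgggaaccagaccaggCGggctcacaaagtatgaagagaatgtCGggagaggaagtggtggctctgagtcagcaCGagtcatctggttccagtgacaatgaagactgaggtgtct
Mir99ahg: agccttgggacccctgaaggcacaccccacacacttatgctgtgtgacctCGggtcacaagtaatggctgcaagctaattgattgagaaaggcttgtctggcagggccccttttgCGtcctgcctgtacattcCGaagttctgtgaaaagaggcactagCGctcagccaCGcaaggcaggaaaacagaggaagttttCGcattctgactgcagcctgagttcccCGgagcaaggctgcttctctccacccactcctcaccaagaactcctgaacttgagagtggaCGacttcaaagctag
Gm34150: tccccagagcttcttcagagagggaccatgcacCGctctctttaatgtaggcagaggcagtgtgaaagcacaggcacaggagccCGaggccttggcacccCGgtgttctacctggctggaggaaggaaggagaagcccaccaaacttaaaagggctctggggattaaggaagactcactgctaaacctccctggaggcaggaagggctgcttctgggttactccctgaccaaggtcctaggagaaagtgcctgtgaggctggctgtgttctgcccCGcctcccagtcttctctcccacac
Snhg5 hosts small nucleolar RNAs in its introns, Dleu2 hosts miR-15a and miR-16-1, and Mir99ahg hosts miR-99a, let-7c and miR-125b. Morrbid lies near Bcl2l11, the gene for the death-promoting protein BIM, and controls the lifespan of short-lived myeloid cells. Gm34150 is named only by its annotation. A motif found in such a window, as counted further on, is a match of letters and not a shown binding site.

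MicroRNA genes lay within 1 kb of 18 of the far regions. The mature sequences of 6 of them, from RefSeq, are given because their regions are described below; the seed, bases 2 to 8, is in capitals.
miR-17-5p: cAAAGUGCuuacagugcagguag
miR-18a-5p: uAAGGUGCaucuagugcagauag
miR-193a-3p: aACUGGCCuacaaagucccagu
miR-193b-3p: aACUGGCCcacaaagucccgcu
miR-9-5p: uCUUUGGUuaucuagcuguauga
miR-129-5p: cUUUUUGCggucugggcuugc
The miR-193a and miR-193b genes are on chromosomes 11 and 16, and their 3p products carry the same seed. The miR-9 product shown is encoded by Mir9-1 on chromosome 3 and by Mir9-3 on chromosome 7, each beside a far region of its own.

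Most far regions were small and weak beside the regions at genes. Their median tag count over both libraries was 40 (quartiles 25 and 82), against 103 over all regions and 383.5 at regions within 1 kb of a protein-coding gene end. Their median width was 649 bp, against 991 bp over all regions and 1603 bp at gene ends. The range was wide, however, from 17 to 8276 tags and from 221 to 7477 bp.

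A peak was listed in both libraries at 2804 far regions (38.7%, exact Clopper-Pearson 95% interval 37.5 to 39.8%). In LPS only it was listed at 1955 (27.0%, 25.9 to 28.0%), where 15.4% of all merged regions were listed in LPS only. In PBS only it was listed at 2492 (34.4%, 33.3 to 35.5%), against 24% of all merged regions. Both one-library shares were thus above those over all regions, and at gene ends they were 3.09% and 7.80%. A peak not listed in a library was below the caller's threshold there, which is not the same as no H3K4me3.

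The one-library regions were mostly weak regions, which is in part fixed by the way tags are summed: a region in 1 list has no tags from the other library, and no shared region had under 35 tags. Of the 4165 far regions under 50 tags, 4.13% were listed in both libraries, close to the 3.74% of all regions in that range. From 50 to under 100 tags the share was 75.4%, against 64.0% of all regions in the range, and from 100 to under 200 tags it was 95.1% against 89.5%. Among the 101 far regions of 500 tags or more it was 99.0% against 99.3%. At a given number of tags, then, far regions were listed in both libraries about as often as other regions or more often. Only 111 of the LPS-only regions (5.68%) and 273 of the PBS-only regions (10.96%) had a caller's score of 100 or more, the score being the negative log10 of the caller's p-value times 10. A peak of the other library lay within 5 kb of 306 of the LPS-only and 408 of the PBS-only regions.

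At the 2804 far regions with a peak in both lists, the log2 ratio of tags, LPS over PBS and each scaled to the filtered tags of its library, had a median of -0.14 (quartiles -0.43 and 0.15). Over all 22203 shared regions it was -0.31, and at gene ends -0.35. The far median was thus nearer 0 under this scaling, but the spread was wider than at gene ends, where the quartiles were -0.51 and -0.20. At matched tags the medians were closer: from 100 to under 200 tags the far median was -0.22 and that of all shared regions of the range -0.28, from 200 to under 500 tags -0.30 and -0.37, and at 500 tags or more -0.26 and -0.33. The value moved with the scaling: with all sequenced tags as the base it was -0.04, and centred on the median of all shared regions it was 0.17, so its sign flipped under that centring. Total tags add 0.10 and centring adds 0.31 to every log2 ratio given here, so each ratio between -0.31 and 0 turns positive relative to the shared regions as a whole. Per covered kb, that is after dividing the tags by the length the peaks of each library covered, the far median was -0.04 against -0.15 over all shared regions.

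**Figure D1:**
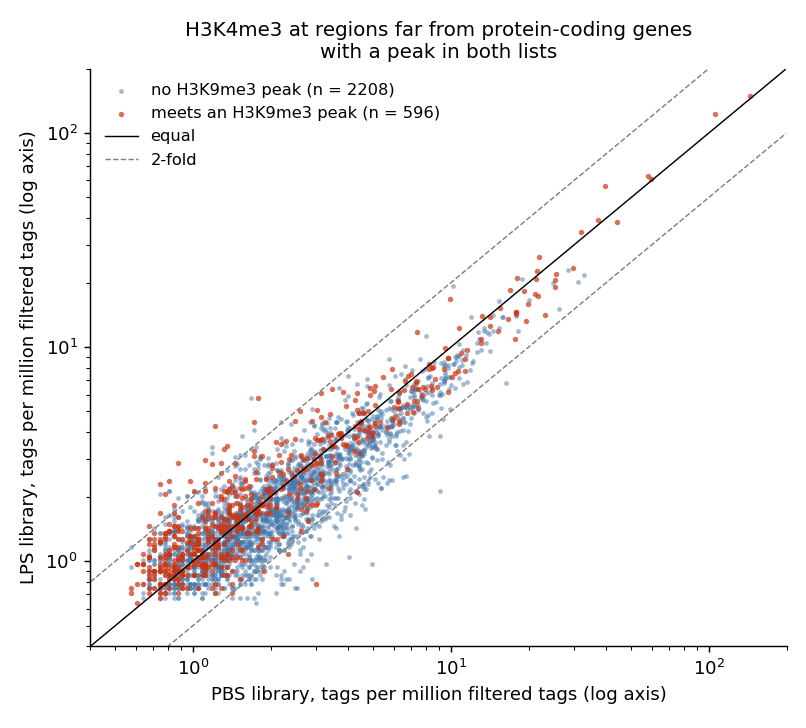
Tags, scaled to the filtered tags of each library, in PBS (x, log axis) and LPS (y, log axis) at the 2804 far regions with a peak in both lists; each point is 1 region, red where it meets an H3K9me3 peak (596 regions), and the lines show equality and 2-fold differences. Most points lie between the 2-fold lines, and the 8 points with the most tags are all red, with log2 ratios from -0.20 to 0.51. Of all 101 far regions of 500 tags or more, 48 met an H3K9me3 peak.

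Among the 1400 shared far regions of 100 tags or more, 18 (1.29%) had at least 2-fold more scaled tags in LPS, where 0.559% of all such regions did. At least 2-fold more in PBS was found at 70 (5%), against 3.19% of all such regions. At matched tags the shares were closer. From 100 to under 200 tags they were 1.89% against 1.53% towards LPS and 5.79% against 6.39% towards PBS. From 200 to under 500 tags they were 0.44% against 0.37% and 4.4% against 3.1%. Centred on the median shared region the counts turned to 54 higher in LPS (against 1.5% of all regions) and 17 higher in PBS (0.867%), and by total tags they were 30 (0.8%) and 44 (2.09%). Covered length differed in the same direction as the tags. All 18 regions were wider in the LPS list, with median covered lengths of 1.42 kb in LPS and 0.746 kb in PBS, and all 70 were wider in the PBS list, with 0.761 kb and 1.56 kb. Per covered kb only 1 far region was past 2-fold in each direction (0.00559% and 0.0671% of all regions). The covered length is set by the caller's threshold and grows with the tags themselves, so a ratio per covered kb is smaller by construction and does not separate a longer region from a stronger one.

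The highest ratios were found near Zfr, Slc30a1, Cabcoco1, Srd5a2, Ezr and Gm46963. The region 17.7 kb from Zfr, which encodes a zinc-finger RNA-binding protein (chr15:12098231-12099887), held 115 tags in LPS and 36 in PBS, a log2 ratio of 1.83 (exact 95% interval 1.27 to 2.41), and it met H3K9me3 peaks of 63 and 80 tags. The region 27.0 kb from Slc30a1, which encodes a zinc exporter (chr1:191877368-191879678), held 155 and 50 tags and met no H3K9me3 peak. Its log2 ratio was 1.78 (1.31 to 2.27) by tags and -0.01 per covered kb, with peaks of 2.31 kb in LPS and 0.669 kb in PBS. It was the one case among the 6 with a ratio below 0 per covered kb. The region 33.0 kb from Ezr, the gene for the membrane-cytoskeleton linker ezrin (chr17:6815794-6817225), held 91 and 35 tags, a log2 ratio of 1.53 (0.95 to 2.13), with no H3K9me3 peak.

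The lowest ratios lay at Gm32618, near Hk2, at Gm34150 and near 4930467E23Rik, Plpp3 and Adamts2. At Gm32618 (chr15:32778523-32780456) 26 tags were found in LPS and 147 in PBS, a log2 ratio of -2.35 (-3.01 to -1.74). The region 46.9 kb from Hk2, which encodes the glycolytic enzyme hexokinase 2 (chr6:82821374-82824570), held 57 and 270 tags, a log2 ratio of -2.09 (-2.53 to -1.68), and per covered kb -0.08, with peaks of 0.79 kb and 3.20 kb. At the region that holds the start of the CpG-poor Gm34150 shown above (chr15:36373895-36375520), 28 and 119 tags were counted, a log2 ratio of -1.94 (-2.59 to -1.33). All 6 lowest regions kept the sign per covered kb, at sizes from -0.03 to -0.73. Near Adamts2, which encodes a procollagen-processing protease, and near Plpp3, a lipid phosphatase gene, 26 against 97 and 22 against 86 tags were found.

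Strong regions listed in 1 library only were few. In LPS only, 181 tags lay in the region 69.8 kb from Cebpb (chr2:167760272-167761848), the gene for a transcription factor of macrophage activation, and 129 tags 20.8 kb from the immediate early gene Ier5 (chr1:155073480-155075565). In PBS only, 664 tags lay 26.5 kb from Pdia4, an endoplasmic reticulum chaperone gene (chr6:47767039-47769650), with an H3K9me3 peak of 118 tags in the PBS list alone. Regions 21.9 kb from Nfkbia (chr12:55464920-55467497), which encodes the NF-kB inhibitor IκBα, and 63.1 kb from Zfp36l2 (chr17:84118260-84120861), which encodes an mRNA-destabilising protein, held 226 and 248 tags in PBS only. These were the strongest cases of each kind and were picked by their tags. The PBS-only region with 403 tags near Lrrc4c (chr2:98663559-98664382) lay between 2 far regions with over 1000 tags in each library, described next, so a missing LPS entry there is no sign of a low level.

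H3K9me3 peaks were met by 1492 far regions (20.6%, exact 95% interval 19.7 to 21.5%), where 20.1% of all regions met one. With the LPS list alone the number was 1240 (17.1%, against 15.9% of all regions) and with the PBS list 1110 (15.3%, against 13%). These shares were near those of all regions, but at matched tags the far share was higher below 500 tags. With either list it was 21.6% against 14.9% under 50 tags and 19.45% against 13.4% from 50 to under 100. From 100 to under 200 tags it was 14.8% against 11.3%, and from 200 to under 500 tags 20.7% against 16.4%. At 500 tags or more the shares were 47.5% and 48.1%. The listings differed as well. An H3K9me3 peak was met by 600 LPS-only far regions (30.7%), 596 shared ones (21.3%) and 296 PBS-only ones (11.9%). Over all regions the shares were 22.4%, 24.5% and 7.41%. Shared far regions that met H3K9me3 had a median H3K4me3 log2 ratio of 0.07, and those that met none -0.20. Of the 18 regions 2-fold higher in LPS 10 met H3K9me3, of the 70 higher in PBS 2 did, and of all 1400 tested 260 did (18.6%). The part of H3K9me3 in the H3K4me3 ratios was not tested.

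All 8 far regions with the most H3K4me3 tags met H3K9me3 peaks, and 6 of them held more H3K9me3 than H3K4me3 tags. The first (chr14:19415347-19419815, 114 kb from Gm2244) held 3982 H3K4me3 tags in LPS and 4294 in PBS, beside 4959 and 5269 H3K9me3 tags. The next (chr17:39842818-39849064) lay on Rn18s-rs5 and AY036118, copies of ribosomal RNA sequence outside the rDNA arrays, with 3275 and 3123 H3K4me3 tags and 4328 and 4111 H3K9me3 tags. A pair more than 1 Mb from Lrrc4c on chromosome 2 (chr2:98666027-98667641 and chr2:98662129-98663315) held 1684 and 1720, and 1049 and 1100, H3K4me3 tags. In the 6 regions with more H3K9me3 than H3K4me3 tags the LPS and PBS libraries were close: the H3K4me3 log2 ratio lay between 0.04 and 0.22. No control library was used by the caller, and whether both antibodies recovered these sites through their marks was not tested. Across the 1025 far regions with a peak of both marks in the LPS libraries, the H3K9me3 tags reached or passed the H3K4me3 tags, per filtered tag, in 414 (40.4%). In the PBS libraries they did so in 406 of 704 (57.7%).

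The exceptions among the 8 were a tRNA gene cluster and a pseudogene. The cluster of n-TDgtc6, n-TEctc7, n-TGgcc14, n-TGtcc4 and n-TLcag8, 11.4 kb from the Fc receptor gene Fcgr3 (chr1:171077279-171084755), was the widest far region, where 1509 H3K4me3 tags of the LPS library covered 7.48 kb and 1174 of the PBS library 4.87 kb, beside 899 and 687 H3K9me3 tags. Its log2 ratio was 0.51 (0.40 to 0.62) by tags and -0.11 per covered kb. At Pisd-ps2 (chr17:3078900-3083491), a pseudogene of phosphatidylserine decarboxylase, 1024 and 1306 H3K4me3 tags stood beside 441 and 654 H3K9me3 tags.

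Far regions lay at a median distance of 38.2 kb from the nearest protein-coding gene (quartiles 19.5 and 88.5 kb). At 1630 (22.5%) the distance was over 100 kb and at 61 over 1 Mb, the farthest lying 2137 kb from Cntnap5b (25 tags, PBS only). Their share of all merged regions ran from 14.1% on chromosome 7 to 29.2% on chromosome 13. With distance, fewer regions were shared and more met H3K9me3. From 10 to 25 kb 42.9% were listed in both libraries, 23.9% in LPS only and 16.0% met H3K9me3, and beyond 250 kb the shares were 30.0%, 35.3% and 42.8% (573 regions). Without the regions that met H3K9me3 the LPS-only share was 21.1% in the nearest class and 32.0% in the farthest, and the PBS-only share 36.3% and 41.8%. The median log2 ratio of the shared ones among these was -0.23 in the nearest class, -0.12 from 100 to 250 kb and -0.25 in the farthest, with no steady course. The median tag count was 48 in the nearest class and 27 in the farthest.

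**Figure D2:**
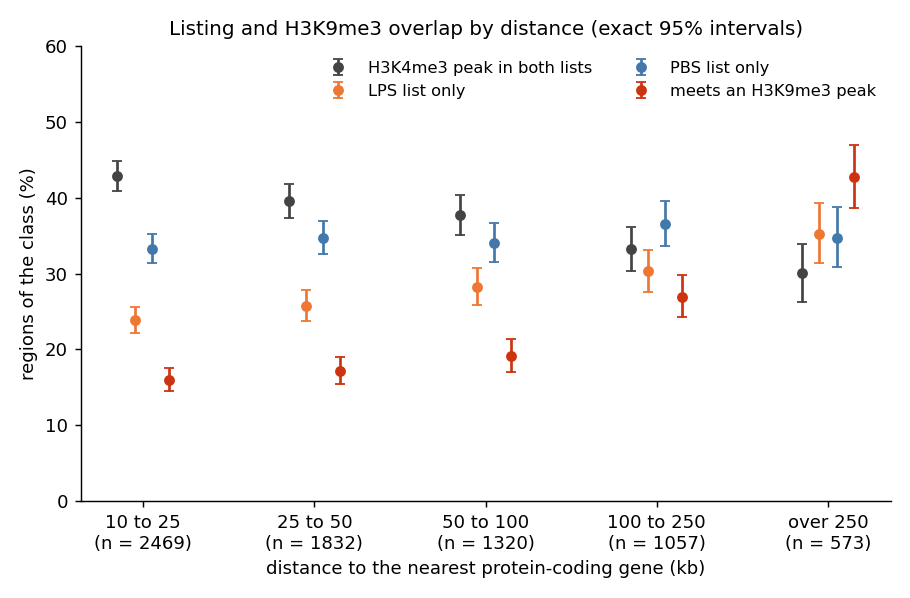
Percent of far regions (y) in each class of distance to the nearest protein-coding gene (x, kb, with the number of regions) that were listed in both libraries, in LPS only or in PBS only, or met an H3K9me3 peak; points are shares and bars exact 95% binomial intervals. The both-list share goes from 42.9% to 30.0% and the H3K9me3 share from 16.0% to 42.8%, while the PBS-only share stays between 33.3% and 36.5%.

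The label intergenic holds with respect to protein-coding genes only. Of the far regions 2267 (31.3%) overlapped a non-coding gene or pseudogene of RefSeq, against 17.2% of all regions. Within 1 kb of an end of one lay 1345 (18.5%, exact 95% interval 17.7 to 19.5%), where 14.2% of all regions did. More than 10 kb from every RefSeq gene of any kind lay 3358. These last had a median of 33 tags, 33.0% of them were listed in both libraries, and 26.7% met H3K9me3.

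Of the far non-coding gene classes with over 100 members, tRNA genes most often had a region at them: 83 of 207 tRNA genes more than 10 kb from protein-coding genes (40.1%) lay within 1 kb of one, against 728 of 5712 lncRNA genes (12.7%), 47 of 235 transcribed pseudogenes (20%), 290 of 5850 other pseudogenes (4.96%) and 23 of 288 miRNA genes (7.99%). The 54 far regions at tRNA genes held 20 to 2683 tags with a median of 105.5. At 37 the peak was in both lists, at 16 in PBS only and at 1 in LPS only. Of the 37, 29 had fewer scaled tags in LPS and 8 more, with a median log2 ratio of -0.40 (-0.12 per covered kb, and -0.09 when centred, with 23 of the 37 below 0). The 78.4% below 0 was near the 79.8% of all shared regions and above the 62.2% of shared far regions. At n-TWcca5, a tryptophan tRNA gene (chr11:61407582-61408981), 161 tags in LPS and 274 in PBS gave -0.62 (-0.91 to -0.33). At n-TIaat17, an isoleucine tRNA gene (chr17:83861292-83863066), 221 and 282 tags gave -0.20 (-0.46 to 0.06), an interval that includes 0. By tags the cluster on chromosome 1 described above, with more in LPS, was therefore not typical of the tRNA genes. Per covered kb its ratio of -0.11 was near their median of -0.12. A 5S rRNA site on chromosome 8 (chr8:123619849-123624592) held 472 and 627 tags.

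RefSeq does not class the segments of antigen receptor genes as protein-coding genes, so some far regions lay at them. At Ighm, the constant region of the immunoglobulin M heavy chain (chr12:113423501-113425667), 392 tags were found in LPS and 529 in PBS, a log2 ratio of -0.28 (-0.47 to -0.09). A further 12 regions lay at variable segments of the immunoglobulin heavy chain, 11 at variable segments of the T cell receptor alpha chain and 1 at one of the beta chain, with 27 to 90, 20 to 138 and 18 tags. Some lymphocyte marker genes also carried peaks, as given above. The part of lymphocytes in these regions was not tested.

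LncRNA starts were held by 353 far regions (4.87%), near the 4.98% of all merged regions, with 424 annotated starts of 367 lncRNAs. These 353 far regions were stronger than the other far regions, with a median of 112 tags against 38. Both libraries listed 65.2% of them, against 37.3%. H3K9me3 was met by 9.63% of them against 21.1%. Their median log2 ratio was -0.32 (-0.01 when centred), near the -0.35 of regions at protein-coding gene ends, and that of the far regions without a lncRNA start was -0.12. Lists were split as 230 shared, 27 in LPS only and 96 in PBS only.

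The starts inside far regions were richer in CpG than far lncRNA starts in no region, and poorer than protein-coding starts. The 300-base promoter windows of the 424 starts held a median of 8 CG dinucleotides, and those of the 5585 lncRNA starts equally far from protein-coding genes but in no region held 3. At least 15 were found in 22.9% of the first and 0.949% of the second, and in 47.3% of protein-coding promoters. The median GC content was 54.3% and 46.3%. The share of starts inside a far region was 2.58% with 0 to 4 CG dinucleotides, 9.62% with 5 to 9, 25.6% with 10 to 14, 45.7% with 15 to 19 and 87.0% (60 of 69, exact 95% interval 76.7 to 93.9%) with 20 or more. Each step up in CpG thus went with a larger share of marked starts. The Snhg5 and Dleu2 windows printed above belong to the top class and those of Morrbid, Mir99ahg and Gm34150 to the lower ones. Several starts of 1 lncRNA can share a region, so the starts are not independent of each other.

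**Figure D3:**
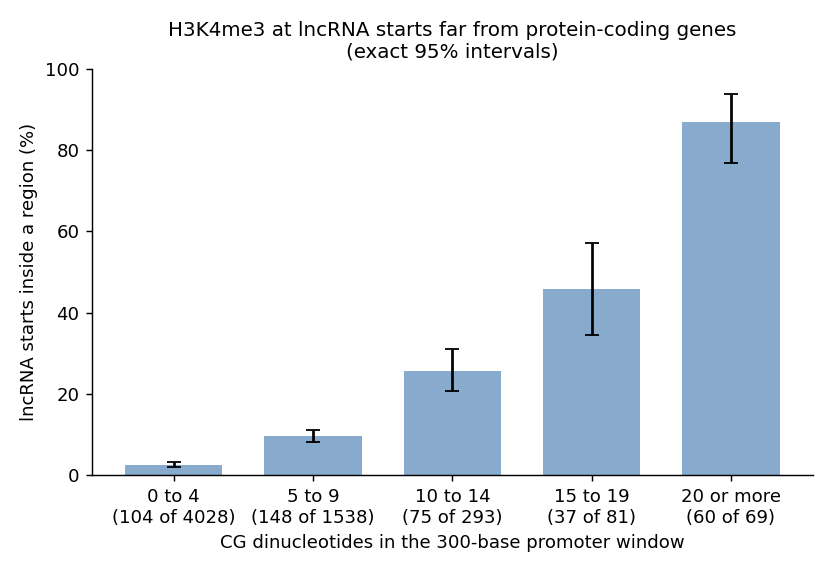
Percent of annotated lncRNA starts more than 10 kb from protein-coding genes that lay inside an H3K4me3 region (y), by the number of CG dinucleotides in the 300-base window around the start (x, with counts of starts); bars are shares and whiskers exact 95% binomial intervals. The share climbs from 2.58% to 87.0% over the 5 classes.

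Short motifs were counted on both strands of the same windows. The TATA box TATAAA was in 10.4% of the windows of starts inside far regions, 18.6% of those in no region and 13.7% of all RefSeq promoters. For CCAAT the shares were 32.5%, 38.5% and 37.6%. The AP-1 motif TGANTCA was in 11.3%, 10.9% and 7.85%, the PU.1 motif GAGGAAGT in 4.72%, 3.58% and 3.22%, and the interferon response motif in 2.36%, 4.06% and 3.46%. The NF-kB motif was found at 3 of the 424 starts (0.708%), against 0.394% and 0.414%. The E-box CACGTG, which itself holds a CG dinucleotide, was in 11.3%, 5.10% and 7.20%. Of these 7 motifs the TATA box differed most in percentage points between starts inside and outside far regions, being less frequent inside, and the E-box came next, being more frequent inside. In the windows printed above a TATA box match stood in Snhg5 and Dleu2, a CCAAT match in Snhg5, a PU.1 match in Dleu2, Morrbid and Mir99ahg, an E-box match in Dleu2 and an AP-1 match in Morrbid. None of the 7 motifs was in the Gm34150 window.

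The summit of the strongest peak mostly lay downstream of the lncRNA start, on the side of transcription. In LPS 173 of 257 summits (67.3%) were downstream, at a median offset of 142 bp, and 84.4% were within 500 bp of the start. In PBS 241 of 326 (73.9%) were downstream, at a median of 143.5 bp, and 85.9% were within 500 bp. The offsets of both libraries thus had nearly the same centre. Only regions that hold a start were used, with a median width of 1054 bp, and the start nearest to the summit was taken. A summit close to a start is therefore in part fixed by the choice of regions. At Morrbid the summits lay 425 bp (LPS) and 493 bp (PBS) downstream, and at Mir99ahg 89 and 37 bp.

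**Figure D4:**
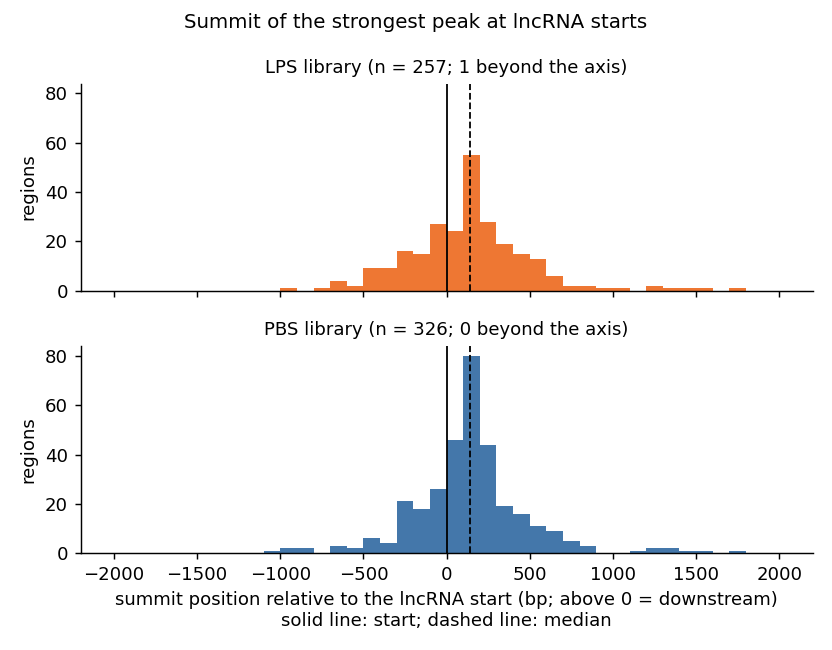
Number of far regions (y) by the position of the strongest summit relative to the annotated lncRNA start (x, bp, above 0 downstream, 100-bp bins), for the LPS library (257 regions) and the PBS library (326 regions). In both panels the bars are highest just downstream of the start, and the medians (dashed) are at 142 and 143.5 bp.

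A list of 44 non-coding RNAs known from macrophages or inflammation had 18 genes lying far from protein-coding genes, and 10 of these 18 had a far region within 1 kb of an end. The other 8, with none that near an annotated end, were H19, Mir146, Mir17hg, Mir187, Mir221, Mir222, Ptgs2os2 and Xist. Mir17hg is among them although a far region lay within 1 kb of Mir17 and Mir18, as described below. In all, 14 far regions lay at 11 genes of the list: 10 were listed in both libraries and 4 in PBS only, and 7 of the 10 had fewer scaled tags in LPS (5 when centred), where 79.8% of all shared regions and 62.2% of shared far regions did. Above 0 were the shared regions at Mir9-3hg and Morrbid. At Mir9-3hg the log2 ratios were 0.32 (-0.07 to 0.71) and 0.27 (-0.15 to 0.70), and -0.17 and 0.05 per covered kb. Morrbid held 370 tags in LPS and 355 in PBS (chr2:128426285-128429875), a log2 ratio of 0.21 (-0.004 to 0.42) and -0.08 per covered kb. Neither Morrbid value is far from 0.

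The lower ratios were at Dleu2, Pvt1, Mir99ahg and Malat1. At Dleu2 (chr14:61679556-61685029) 536 tags in LPS and 926 in PBS gave a log2 ratio of -0.64 (-0.79 to -0.48). The PBS peaks covered 5.47 kb and the LPS peaks 3.11 kb, and per covered kb the sign turned to 0.18. At Pvt1, a lncRNA gene 47.0 kb from Myc (chr15:62037357-62040218), 183 and 341 tags gave -0.75 (-1.01 to -0.48). Mir99ahg (chr16:77328927-77330433) held 61 and 141 tags, -1.06 (-1.52 to -0.62) and -0.33 per covered kb. On Malat1, an abundant nuclear lncRNA, 173 and 309 tags were found in the gene (chr19:5799506-5801676), -0.69 (-0.96 to -0.41), and 96 tags in PBS only in a second region beside it (chr19:5802919-5803632). Except at Dleu2 the PBS library was higher in these by either measure.

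Lncpint, a lncRNA gene induced by p53 (chr6:31215416-31219316), held 615 and 841 tags over nearly the same length, -0.30 (-0.45 to -0.15). Terc, which encodes the RNA template of telomerase (chr3:96413870-96415073), held 115 and 175 tags, -0.46 (-0.81 to -0.11), and 0.09 per covered kb. The region that holds the Snhg5 start (chr9:88521292-88522922) was listed in PBS only with 131 tags, but the region just upstream of it (chr9:88522993-88523709) was in both lists with 66 and 90 tags. So the Snhg5 promoter was marked in both libraries, and the LPS peak covered less of it. Mirg, an imprinted miRNA host gene, and Mirt1 had 23 and 44 tags, in PBS only.

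Of the 18 far regions at miRNA genes 15 were listed in both libraries, 1 in LPS only and 2 in PBS only, and the median log2 ratio of the 15 was -0.22 (0.08 when centred). The strongest lay at Mir17 and Mir18, of the miR-17-92 cluster that represses death and cell-cycle inhibitors (chr14:115040008-115042913), where 589 tags of the LPS library and 755 of the PBS library gave -0.21 (-0.37 to -0.05). Regions at Mir193a (chr11:79710742-79712571; 318 and 451 tags) and Mir193b (chr16:13446786-13449052; 278 and 388 tags), whose 3p products share the seed printed above, had log2 ratios of -0.35 (-0.57 to -0.14) and -0.33 (-0.56 to -0.10). These 2 regions were close to each other in level and in ratio.

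Some miRNA regions had more tags in LPS. Mir9-3 (chr7:79504460-79506401) held 158 tags in LPS and 118 in PBS, a log2 ratio of 0.57 (0.22 to 0.93), while Mir9-1, which encodes the same miR-9-5p (chr3:88214111-88216556), held 329 and 318 tags, 0.20 (-0.03 to 0.43). Mir129-2 (chr2:94240216-94242120) held 126 and 93 tags, 0.59 (0.19 to 0.99). Per covered kb the Mir9-3 and Mir129-2 ratios were -0.16 and -0.44, the opposite sign. The lowest ratio of the 10 strongest miRNA regions was at Mir8096 (chr1:85750125-85752699), with 62 and 168 tags, -1.29 (-1.73 to -0.86), and -0.04 per covered kb.

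Regions were next grouped by their nearest protein-coding gene. Of a list of 36 inflammatory mediator genes (34 in the annotation) 13 were nearest to 32 far regions. Of these regions 15 were shared, 13 (40.6%) were listed in LPS only and 4 (12.5%) in PBS only, where the shares over all far regions were 27.0% and 34.4%. The median log2 ratio of the 15 was 0.24, against -0.14 over all shared far regions, with 11 above 0 (62.2% of all shared far regions were below 0), and it was 0.55 when centred but -0.04 per covered kb. H3K9me3 was met by 4 of the 32, and without them 10 were in LPS only and 4 in PBS only. With so few regions, several beside the same gene, these are descriptions of single loci.

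Beside the chemokine gene Ccl2 lay 3 regions. The nearest to it, 18.4 kb away (chr11:82015403-82017202), held 103 tags in LPS and 46 in PBS, a log2 ratio of 1.31 (0.80 to 1.85) and 0.18 per covered kb. Another, 24.1 kb away (chr11:82009783-82011453), was listed in LPS only with 91 tags, and the farthest, 27.0 kb away (chr11:82007332-82008619), held 77 tags in each library. Near Csf2, the gene for the growth factor GM-CSF, a region at 22.8 kb (chr11:54222993-54224511) held 84 and 45 tags, 1.05 (0.51 to 1.61), and one at 31.4 kb held 131 and 123. Near Acod1, whose enzyme makes itaconate, the region 31.4 kb away held 71 and 40 tags, 0.98 (0.40 to 1.57), while 2 nearer ones were in PBS only with 27 and 33 tags. These loci thus held LPS-high, level and PBS-only regions side by side.

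Every far region nearest to Il1a (52 and 43 tags), Il6 (24 and 26 tags) and Ptgs2 (35, 20 and 27 tags) was listed in LPS only. All but the stronger Il1a region had under 50 tags. Of the 4165 far regions in that range, 4.13% had peaks from both libraries. The LPS library alone gave a peak at 43.8% of them and the PBS library alone at 52.1%. At such counts a peak in a single list was thus the usual case for either treatment. Il1a and Il6 encode the cytokines interleukin 1 alpha and interleukin 6, and Ptgs2 the prostaglandin-forming enzyme COX-2. Near Nos2, the inducible nitric oxide synthase gene, 2 regions were in LPS only (39 and 19 tags) and 1 in both lists (30 in LPS, 42 in PBS). Near Il12a, which encodes the p35 subunit of interleukin 12, both regions had fewer scaled tags in LPS, but both intervals include 0. They held 33 and 45 tags, -0.30 (-0.99 to 0.38), and 30 and 46 tags, -0.47 (-1.18 to 0.23). The second met H3K9me3 peaks of 46 and 43 tags. Near the chemokine gene Ccl3 the only region was in PBS only (31 tags). The tag counts here were low, and the smallest peak either H3K4me3 list holds has 17 tags.

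**Figure D5:**
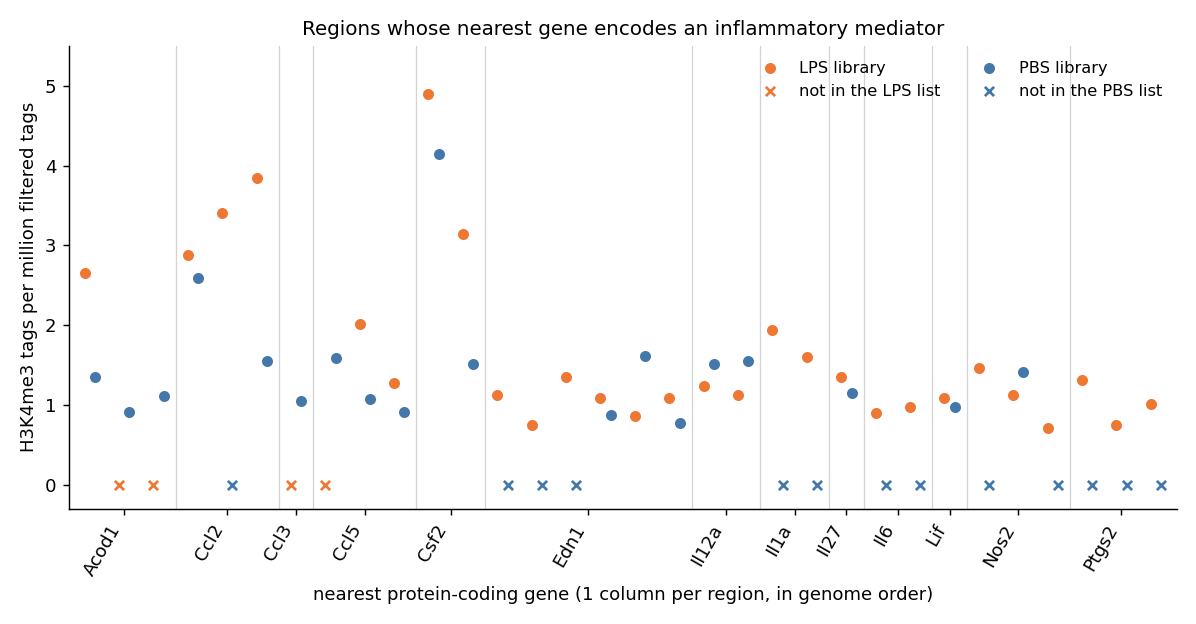
Scaled H3K4me3 tags (y, relative to the filtered tags of the library) in LPS and PBS at the 32 far regions whose nearest protein-coding gene is on the inflammatory mediator list (x, 1 column per region, grouped by gene); crosses at 0 mark a region not in that library's list. In 13 columns the PBS list has no peak, and in 4 the LPS list has none.

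Of 58 genes for macrophage transcription factors and feedback regulators 42 were nearest to 223 far regions. Of these regions 91 were shared, 50 in LPS only (22.4%) and 82 in PBS only (36.8%). The median log2 ratio of the shared ones was -0.01 (0.30 when centred). The genes with the most regions were Klf4 (15), Id2 (14), Jun (14), Myc (13) and Klf6 (12), which encode factors of macrophage differentiation, early response and growth. On 1 side of Klf4, Id2, Jun and Myc the gaps to the next protein-coding gene were 1207.5, 1210.7, 505.3 and 1785.6 kb long. These gaps held 1.16, 1.32, 3.17 and 0.784 far regions per 100 kb. The part of gap length in the counts was not tested. The strongest regions near genes of this list were at the lncRNA D730003I15Rik, at Pvt1 near Myc, and at 4632428C04Rik. The first lay 40.2 kb from the stress-response factor gene Atf3 (chr1:191223537-191225749, 206 tags in LPS, 337 in PBS, -0.56, -0.82 to -0.31). The last lay 55.2 kb from the Notch target gene Hes1 (225 and 271 tags, -0.12, -0.38 to 0.14). Of 49 genes of macrophage surface and function 25 were nearest to 89 far regions, 29 shared, 24 in LPS only (27.0%) and 36 in PBS only (40.4%), with a median log2 ratio of 0.003 (0.31 when centred). The strongest lay 35.6 kb from the chemokine receptor gene Ccr1 (chr9:123923026-123926542), with 552 and 750 tags, -0.29 (-0.45 to -0.13), and 2 more lay 37.6 and 16.8 kb from Csf2ra, a GM-CSF receptor gene, with 176 and 248, and 133 and 211 tags.

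Developmental transcription factor genes, which are mostly silent in macrophages, were looked at in the same way. Of 89 such genes 42 were nearest to 85 far regions, 32 shared, 25 in LPS only (29.4%) and 28 in PBS only (32.9%), with a median log2 ratio of -0.08 (0.22 when centred), and 28 of the 85 (32.9%) met H3K9me3. The share was 20.6% over all far regions, 12.5% at the mediator list, 12.6% at the transcription factor list and 14.6% at the surface list. The median distance to the gene was 88.6 kb at the developmental list, and 25.5, 63.1 and 62.7 kb at the mediator, transcription factor and surface lists. The part of distance in these shares was not tested. Dlx2, a forebrain and limb factor gene, had 10 of the 85 regions. The strongest lay at the lncRNAs Gm29418, 111 kb from Six2 (174 and 232 tags), and Pantr2, 12.7 kb from Pou3f3 (138 and 205 tags). Across all far regions in both lists, the log2 ratio was nearly unrelated to that of the region at the end of the nearest gene (Spearman 0.05 over 2136 regions near 1451 genes, all from the same libraries and some sharing a gene), and at 100 tags or more it was 0.09 over 1085 regions.

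Spacing varied. Another far region lay within 20 kb of 3770 of them (52.0%) and within 1 kb of 780 (10.8%). Of the 2978 gaps between protein-coding genes that held any, 1457 held a single one and 359 at least 5, and these had 2736 regions (37.7%) in all. The gap between Bcl2l11 and Spdye4c, which holds Morrbid, had 21 regions over 429 kb: 6 shared, 7 in LPS only and 8 in PBS only. Between Cebpb and Ptpn1, a phosphatase gene, there were 16 over 240.3 kb, 9 of them shared with a median log2 ratio of 0.21, and between Ly86, which encodes MD-1 of the RP105 receptor complex, and Rreb1 there were 18 over 359 kb with -0.18. Between the cholesterol exporter gene Abca1 and Slc44a1 there were 17, divided as 6 shared, 6 in LPS only and 5 in PBS only. These gaps were chosen after their values had been seen.

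Just inside the distance limit lay regions 10.005 kb from Ndufb3 (34 tags, PBS only) and from Auh (39 tags, LPS only). Just outside it lay one 9.995 kb from Csf2 (36 tags, PBS only) and one 9.979 kb from Hnrnpll (32 tags in LPS, 29 in PBS).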

How the data were processed

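Peak lists of 4 ChIP-seq libraries were used, 1 per group. Of software, per the submitters' processing notes, DiffBind, MACS 1.4.2, Bowtie 0.12.8 and CASAVA 1.4 were used, with build mm10. Per the file headers, MACS 1.4.2 called the peaks of each library separately with no control, at a p-value cutoff of 1e-05, keeping 1 tag per position and taking the local background over 10000 bp. A weak broad mark such as H3K9me3 is poorly served by such narrow calls, so an unlisted site is not a site without the mark. In the lists the authors deposited, the tags of a peak are a count, the caller's score is the negative log10 of its p-value times 10, the fold enrichment is a ratio to the caller's background, and start, end and summit are positions. Score and fold are the authors' own values.

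Peaks were merged where they overlapped or touched, and placed against RefSeq genes of GRCm38.p6, the assembly that mm10 names. The gene table holds no strand, so distances are to the nearer gene end; strands of lncRNA starts come from the RefSeq promoter table, which covers 9520 of 12697 lncRNA genes. Tags of all peaks in a region were summed per library and divided by the filtered tags in the header, and the log2 ratio of LPS to PBS has an exact binomial (Clopper-Pearson) 95% interval. With 1 library per group no test was made: called means at least 2-fold, at 100 tags or more over both libraries and a peak in both lists. An overlap of 1 bp counts as meeting an H3K9me3 peak. The tags of a region move with the covered length, so tags per covered kb are given beside, although the caller's threshold makes that length depend on the tags.

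The regions named were the 8 with the most tags, the 6 highest and 6 lowest ratios, the 5 strongest of each one-list kind, those at listed non-coding RNAs and the 10 strongest at miRNA genes, the 4 widest, the 4 farthest, the 4 strongest meeting H3K9me3, up to 3 per list of neighbouring genes, and those on either side of the distance limit; other regions named at tRNA, rRNA and antigen receptor genes and beside mediator genes were picked after their values had been seen. The regions and lists were chosen with earlier results of these data known. Alternatives covered distance, merging, score, gene set, scaling, tag minimum and overlap. Python 3.11.15, pandas 2.3.3, scipy 1.17.1 and bedtools 2.31.1 were used. The merging and distance code was checked on small made-up cases, and the number of merged regions also with bedtools. The fold call was tested on simulated counts. Peaks on chromosome Y were left out of the regions. One region that the naming rule picks is not reported here.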

Additional observations from a re-analysis of the deposited data

Results flagged for a closer look

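Peaks on chromosome Y lay outside the chromosomes used. The H3K4me3 list of the LPS library held 27 of them, with 18 to 412 tags and a median of 51, and that of the PBS library 30, with 20 to 373 tags and a median of 50. They were picked out as signal in a part of the lists that no comparison used, and no control library gives a level to set them against.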

How the results depend on the processing

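No paired analysis was possible because each group held 1 library, and no library could be left out. Of 75 values under alternatives 23 stayed within counting error or within 1.5 times the count, and 52 moved. Asking for more than 25 kb left 4782 regions (LPS only 28.6%, median log2 ratio -0.11, 42 at least 2-fold higher in PBS, 22.9% meeting H3K9me3, 17.3% at non-coding gene ends), and more than 50 kb left 2950 (30.3%, -0.091, 7 regions past 2-fold towards LPS and 22 towards PBS, 26.5%, 15.6%). Merging peaks up to 1 kb apart gave 32.6% in PBS only and 30 at least 2-fold higher in LPS. Peaks of score 100 or more left 2239 regions (LPS only 11.5%, PBS only 39.2%, -0.24, 8 and 29, 30.2% at non-coding gene ends). Keeping away from every RefSeq gene left 3358 (31.2%, 35.8%, -0.067, 10 and 19, 26.7% meeting H3K9me3, and by construction 0% at non-coding gene ends). Total tags gave -0.0385 with 30 and 44, centring on the median shared region 0.17 with 54 and 17, and tags per covered kb -0.0402 with 1 and 1. A minimum of 50 tags gave 39 past 2-fold towards LPS, and of 200 tags 2, with 21 towards PBS. Counting a region as listed alone only at a score of 100 or more left 1.53% (LPS) and 3.77% (PBS). Within 1 kb of an H3K9me3 peak lay 23.7%, H3K9me3 peaks of score 100 or more were met by 9.93%, and 34.2% lay within 5 kb of a non-coding gene end. Leaving out the regions that met H3K9me3, chosen after seeing the data, gave LPS only 23.5%, PBS only 38.1%, -0.20, 8 past 2-fold towards LPS, and 20.4% at non-coding gene ends. Stricter settings left fewer regions by construction; the cause of the other moves was not tested. Of 53 named ratios 11 changed sign per covered kb, 9 under centring and 2 by total tags. Among those past 2-fold, 1 changed sign, the ratio near Slc30a1, from 1.78 to -0.0061 per covered kb. At the weakest regions, near 17 tags, being listed in 1 library says little about the other.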
